A study of Mus musculus with 1 sample.

Results

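The data examined here are 10 megakaryocyte and platelet genes in 1 RNA-seq library, *Pf4*, *Ppbp*, *Gp1ba*, *Gp1bb*, *Gp9*, *Gp6*, *Itga2b*, *Itgb3*, *Vwf* and *Treml1*, out of 54532 genes in the table. They were listed by name for their known role. The rule uses no measured value, but the list was drawn up with earlier results of these data known, so it is not independent of them. The library holds RNA of sorted c-kit+ bone marrow (BM) cells from Ctrl mice, labelled C57BL/6 by strain and wild type by genotype, with no treatment named. By the labels the gated cells lacked lineage antigens and Sca-1. The study set these cells beside c-kit+ BM cells of *Gadd45g*-deficient mice with a myeloproliferative neoplasm (MPN), a disease in which platelets are often in excess. That second library was not analysed here, so there is no contrast between groups, no replicate and no p-value. The age, sex and number of the Ctrl mice are not given for this library in the sources used here.

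Megakaryocytes are the large, polyploid marrow cells that shed platelets. They arise from c-kit+ progenitors shared in part with red cells, and as they mature they fill alpha granules with chemokines and adhesive proteins. They also place on their surface the receptors with which platelets later grip von Willebrand factor, collagen and fibrinogen. c-kit, the receptor tyrosine kinase used for the sort, declines as megakaryocytes mature, and platelets carry mRNA made by their parent cell.

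FPKM values are fragments divided by exon length and by the size of the library. The fragments recovered from the deposited values summed to 17113323 over the annotated genes. That sum takes in genes for which the recovery gave no whole number. It need not equal the library size by which the values were divided. The gene of the sorting antigen, *Kit*, had 7.17 FPKM, and 5 of the 10 genes were at or above it, as were 11.7% of all genes and 26.4% of protein-coding genes. Transcripts that mark maturing granulocytes and erythroid cells were abundant too, with medians of 3872 and 1113 FPKM, and their values stand beside those of the platelet genes further on. Each interval below is a 95% Wilson interval, which takes in counting error alone, so variation among mice is outside it. In bulk RNA, fewer cells of a type and less RNA per cell cannot be told apart.

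Start-site windows are shown first, for the genes compared in pairs below. They are the platelet chemokine genes *Ppbp* and *Pf4*, which had the highest levels of the 10, and *Gp9* and *Gp1ba*, chains of 1 receptor whose levels lay far apart. Each window holds the 250 bases before the RefSeq transcription start on GRCm38.p6, 5′ to 3′ on the gene's strand, which is the forward strand for all of them. Capitals mark GATAA, a form of the GATA factor site, and GGAAG, a form of the ETS factor site, in either orientation. The shorter ETS core GGAA was not searched, and it occurs elsewhere in these windows without capitals. The windows lie at chr5:90768268-90768517 (*Ppbp*), chr5:90772185-90772434 (*Pf4*), chr6:87777820-87778069 (*Gp9*) and chr11:70638872-70639121 (*Gp1ba*).
Ppbp: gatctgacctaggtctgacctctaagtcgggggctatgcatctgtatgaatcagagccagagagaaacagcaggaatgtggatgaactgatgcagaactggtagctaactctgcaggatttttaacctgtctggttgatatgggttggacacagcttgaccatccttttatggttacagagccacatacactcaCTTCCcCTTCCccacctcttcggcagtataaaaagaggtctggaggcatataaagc
Pf4: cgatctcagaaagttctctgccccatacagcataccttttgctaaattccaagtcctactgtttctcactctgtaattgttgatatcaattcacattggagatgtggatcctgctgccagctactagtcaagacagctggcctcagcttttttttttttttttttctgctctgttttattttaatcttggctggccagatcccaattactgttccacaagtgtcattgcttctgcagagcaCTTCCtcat
Gp9: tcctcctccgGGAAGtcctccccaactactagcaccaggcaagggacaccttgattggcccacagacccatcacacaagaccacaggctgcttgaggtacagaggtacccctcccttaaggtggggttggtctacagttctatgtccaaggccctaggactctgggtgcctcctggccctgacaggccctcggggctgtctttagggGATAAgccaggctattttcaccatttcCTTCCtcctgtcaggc
Gp1ba: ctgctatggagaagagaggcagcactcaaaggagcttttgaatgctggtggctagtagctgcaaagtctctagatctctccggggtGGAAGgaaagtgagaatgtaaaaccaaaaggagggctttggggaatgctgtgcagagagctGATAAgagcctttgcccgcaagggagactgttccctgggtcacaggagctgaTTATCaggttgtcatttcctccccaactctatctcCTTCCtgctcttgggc

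RefSeq windows were matched for 8 of the 10 genes, all but *Vwf* and *Itgb3*. GGAAG or its complement CTTCC was in 7 of the 8, all but *Gp6*, and in 64.1% of the 32851 mouse windows of the same length. The *Gp6* window does hold the shorter GGAA, which was not counted. GATAA or TTATC was in 3 of the 8, those of *Gp1ba*, *Gp6* and *Gp9*, and in 22.6% of all windows. The longer AGATAA or TTATCT, searched first, was in 1 of the 8, that of *Gp6*, and in 9.99% of all windows, and TGTGGT or ACCACA, a RUNX core, was in 1, that of *Gp9*, and in 14.1%. *Gp1ba* and *Gp9* were the 2 windows with both GATAA and GGAAG in either orientation, a combination found in 13.2% of all windows. In both of them a CTTCC began 16 bases before the start, and GATAA or TTATC lay upstream of it. These were 43 bases before the start in *Gp9* and 51 and 103 bases before it in *Gp1ba*. In *Ppbp* a pair of CTTCC matches began 56 and 50 bases before the start, and in *Pf4* the single one began 9 bases before it. These are matches of letters and not sites shown to be bound.

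Of the 10 genes, 8 reached 1 FPKM, the level at which a gene is counted as detected here, against 22.2% of all genes in the table and 46.8% of the 21995 protein-coding genes. At 10 FPKM or more were 4 of the 10, against 9.37% of all genes and 21.2% of protein-coding genes. The median of the 10 was 6.56 FPKM, while the median over protein-coding genes was 0.5997 FPKM and that over the protein-coding genes at 1 FPKM or more was 8.66 FPKM. Of the 8 detected platelet genes, 5 lay above the middle of the detected genes and 3 below it. Together the 10 had 3660 recovered fragments, or 0.0214% of all recovered fragments, and 0.0244% of the summed FPKM. From the highest to the lowest gene above 0 the levels ran from 38.7 FPKM for *Ppbp* to 0.408 FPKM for *Gp6*, a ratio of 94.9 (95% interval, 68.4 to 135). Intervals of ratios are exact conditional binomial intervals from the fragments of the pair.

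**Figure D1:**
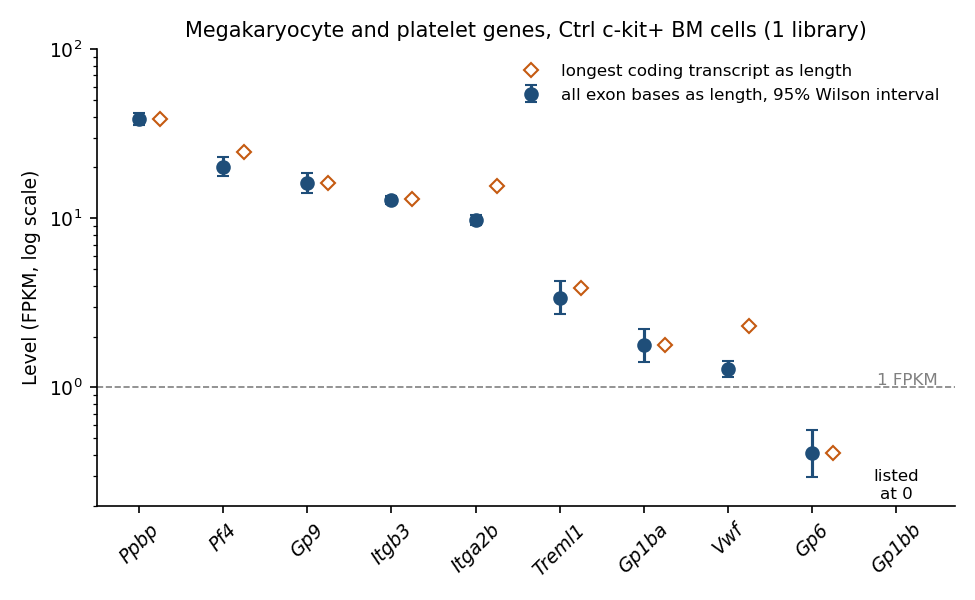
Level of each of the 10 genes in FPKM on a log axis, with the gene's whole exon length (filled circles, 95% Wilson intervals of counting error) and with the length of its longest coding transcript (open diamonds). *Ppbp* is highest at 38.7 FPKM, *Gp6* lies below the dashed line at 1 FPKM, *Gp1bb* is listed at 0, and *Vwf* and *Itga2b* move most when the length changes.

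The chemokines of the alpha granule were the most abundant of the 10 genes. Gene coordinates are those of GENCODE M21 on GRCm38. *Ppbp* (ENSMUSG00000029372, chr5:90768518-90770063, forward strand) encodes pro-platelet basic protein, from which neutrophil-attracting CXCL7 is cut. It had 38.7 FPKM from 662 fragments (interval, 35.9 to 41.8), and 94.0% of protein-coding genes were lower. *Pf4* (ENSMUSG00000029373, chr5:90772435-90773383, forward strand) encodes platelet factor 4, a heparin-binding chemokine released when platelets are activated. It had 20.2 FPKM from 230 fragments (interval, 17.8 to 23.0). *Ppbp* was thus 1.92 times *Pf4* (interval, 1.65 to 2.24), and the intervals of the levels do not overlap. The genes lie 2372 bases apart, neither shares an exon base with another gene, and together they made up 56.4% of the summed FPKM of the 10 genes but 24.4% of their fragments, because both are short.

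*Vwf* (ENSMUSG00000001930, chr6:125546774-125686679, forward strand) encodes von Willebrand factor, the long adhesive protein that tethers platelets to injured vessel walls and that endothelial cells make as well. It stood far below the chemokines, at 1.28 FPKM from 324 fragments (interval, 1.15 to 1.42). The level depends on the length used. All exons of its 11 annotated transcripts cover 16064 bases and its longest coding transcript 8834, with which the level was 2.32 FPKM. All 13 genes listed for alpha granule cargo reached 1 FPKM, and their median was 20.2 FPKM. *Srgn*, the proteoglycan core protein of granules in many blood cells, was highest at 236 FPKM (interval, 230 to 241), and *Pdgfb*, a growth factor for mesenchymal cells, lowest at 1.005 FPKM (interval, 0.790 to 1.28), a place that *Mmrn1*, for multimerin-1, took with longest coding transcripts, at 1.40 FPKM. Without the 3 genes already described, the other 10 had a median of 12.1 FPKM. The 3 genes listed for building the granule were at 37.6 FPKM for *Nbeal2*, 10.1 FPKM for *Vipas39* and 6.11 FPKM for *Vps33b*.

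*Treml1* (ENSMUSG00000023993, chr17:48359916-48367176, forward strand) encodes TLT-1, a receptor stored in the alpha granule membrane that moves to the surface of activated platelets. It had 3.39 FPKM from 75 fragments (interval, 2.70 to 4.25). It was 5.54 times *Mpig6b* (interval, 3.43 to 9.26), an inhibitory receptor of megakaryocytes at 0.612 FPKM. The surface regulators that leukocytes carry too were higher, with 10.6 FPKM for *Pecam1* and 39.7 FPKM for *Ceacam1*. *Pecam1* was 3.12 times *Treml1* (interval, 2.47 to 4.004).

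The chains of the GPIb-IX-V complex, the platelet receptor for von Willebrand factor, were at unequal levels. *Gp9* (ENSMUSG00000030054, chr6:87778072-87779768, forward strand) encodes the small GPIX chain and had 16.2 FPKM from 225 fragments (interval, 14.2 to 18.4). *Gp1ba* (ENSMUSG00000050675, chr11:70639122-70642036, forward strand) encodes GPIb alpha, the chain that binds von Willebrand factor. It had 1.77 FPKM from 76 fragments (interval, 1.42 to 2.22). *Gp9* was therefore 9.13 times *Gp1ba* per length (interval, 7.01 to 12.01), and 2.96 times when fragments were not divided by length. *Gp5*, the chain that joins the complex more loosely, lay near *Gp1ba*, at 2.54 FPKM (interval, 2.06 to 3.13), a ratio to *Gp1ba* of 1.43 (interval, 1.042 to 1.97).

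*Gp1bb* (ENSMUSG00000050761, chr16:18620317-18622403, reverse strand) encodes GPIb beta, which is linked to GPIb alpha in the receptor. It is listed at 0, alone among the 10 genes. In the annotation 1938 of its 2087 exon bases, or 92.9%, are also exon bases of other genes on the same strand, and 149 are its own. It shares 1902 bases with *Sept5*, a septin gene, and 867 with *Gm49601*, whose exons run through both genes. *Sept5* had 6.65 FPKM from 411 fragments, and *Gm49601* 0.702 FPKM from 38 fragments. None of the other 9 genes shares an exon base with any gene in the table. Among all protein-coding genes with 90% or more of their exon bases shared, 242 of 272, or 89.0%, are listed at 0, against 5874 of 15538, or 37.8%, of those that share none. The share did not rise steadily, with 15.3% at 0 among genes under 50% shared and 35.6% among those at 50% to under 90%. No fold is given for *Gp1bb*, and its 0 is not read as an absence of its mRNA.

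**Figure D2:**
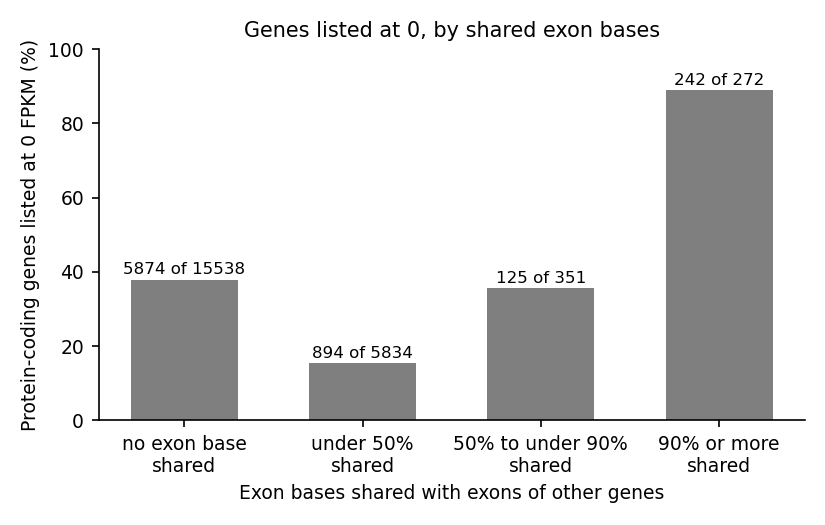
Percent of protein-coding genes listed at 0 FPKM, grouped by the share of their exon bases that are also exon bases of another gene, with the counts above the bars. The percent at 0 is 37.8% where no base is shared, 15.3% under 50% shared and 35.6% at 50% to under 90%. It is 89.0% at 90% or more, the group that holds *Gp1bb*.

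*Gp6* (ENSMUSG00000078810, chr7:4363965-4397744, reverse strand) encodes GPVI, the collagen receptor that signals through the Fc receptor gamma chain. It was the lowest gene above 0, with 0.408 FPKM from 38 fragments (interval, 0.297 to 0.560). Its partner *Fcer1g*, which serves Fc receptors of many myeloid cells, had 353 FPKM, a ratio of 864 (interval, 629 to 1223). The other platelet receptors of this list were low as well, with 0.981 FPKM for *Clec1b*, the podoplanin receptor CLEC-2, and 0.542 FPKM for *Itga2*, the alpha chain of the collagen-binding integrin. With the longest coding transcript as its length *Clec1b* came to 4.59 FPKM, past the detection level, while *Gp6* stayed at 0.408 FPKM and *Itga2* came to 0.544 FPKM. *Itgb1*, the beta chain paired with it and with many other alpha chains, had 55.3 FPKM. *Fcer1g* and *Itgb1*, chains made by many blood cells, thus stood far above *Gp6* and *Itga2*, which they pair with.

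*Itga2b* and *Itgb3* encode the chains of the fibrinogen receptor alpha-IIb beta-3, the antigens CD41 and CD61 by which megakaryocytes are gated in flow cytometry. *Itgb3* (ENSMUSG00000020689, chr11:104608000-104670476, forward strand) had 12.8 FPKM from 1192 fragments (interval, 12.1 to 13.5). *Itga2b* (ENSMUSG00000034664, chr11:102453297-102470122, reverse strand) had 9.73 FPKM from 838 fragments (interval, 9.10 to 10.4). Per base of exon *Itgb3* was 1.31 times *Itga2b* (interval, 1.20 to 1.44), but this order rests on the length. The 10 transcripts of *Itga2b* cover 5454 bases and its longest coding transcript 3437, and with longest coding transcripts *Itga2b* came to 15.4 FPKM and *Itgb3* to 13.1 FPKM. Both chains were above *Itgav*, the other alpha chain that pairs with beta-3, at 1.89 FPKM. *Itga2b* was 5.14 times *Itgav* (interval, 4.52 to 5.87) and *Itgb3* 6.76 times (interval, 5.97 to 7.67). Both genes are long, and together they gave 55.5% of the fragments and 21.6% of the summed FPKM.

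**Figure D3:**
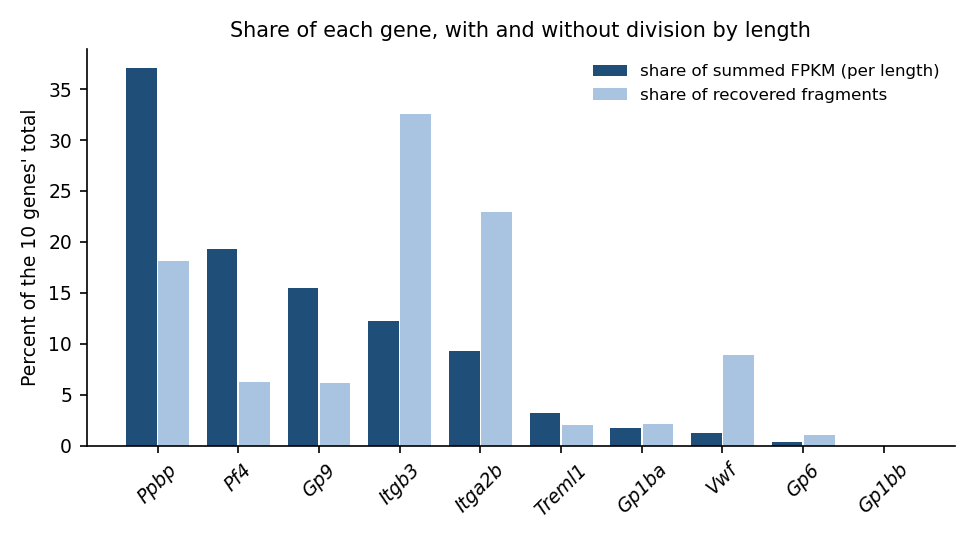
Share of each gene in the total of the 10 genes, in percent, by summed FPKM (dark bars, divided by length) and by recovered fragments (light bars, not divided). *Ppbp* leads by FPKM with 37.1% and *Itgb3* by fragments with 32.6%.

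In the order of levels, *Ppbp*, *Pf4*, *Gp9*, *Itgb3*, *Itga2b*, *Treml1*, *Gp1ba*, *Vwf* and *Gp6*, every ratio of neighbours had an interval that leaves out 1. The closest pairs were *Pf4* and *Gp9*, with a ratio of 1.25 (interval, 1.03 to 1.51), and *Gp9* and *Itgb3*, with 1.26 (interval, 1.09 to 1.46). Of *Gp1ba* and *Vwf* the ratio was 1.39 (interval, 1.07 to 1.78). With longest coding transcripts as the length, 2 pairs changed places, *Itga2b* with *Itgb3* and *Vwf* with *Gp1ba*. Whether any of these differences exceeds the spread between mice is unknown with 1 library.

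The lists for integrin activation, ITAM signalling and the proplatelet cytoskeleton had medians above that of the 10 genes, at 135, 42.2 and 64.9 FPKM. Of 83 companion genes in 15 lists by role, 71 reached 1 FPKM. The median of the 83 was 10.1 FPKM, beside 6.56 FPKM for the 10 genes and 9.73 FPKM for them without *Gp1bb*. With longest coding transcripts as the length 75 of the 83 reached 1 FPKM and their median was 15.8 FPKM, beside 8.45 FPKM for the 10 genes. Of the 83 levels 24 rose by more than 1.5 times, most of all that of *Rasgrp2*, by 5.39 times. All 5 genes of integrin activation reached 1 FPKM. They ran from 139 FPKM for *Rap1b*, the small GTPase that turns the integrin on, down to 19.0 FPKM for *Apbb1ip*. Between them were *Fermt3*, which encodes kindlin-3, at 136 FPKM, *Tln1*, which encodes talin, at 135 FPKM, and *Rasgrp2* at 19.7 FPKM. With longest coding transcripts *Fermt3* was highest, at 305 FPKM, *Rasgrp2* came to 106 FPKM and *Apbb1ip* stayed lowest, at 50.8 FPKM. The deposited value of *Fermt3* has no whole fragment count behind it, so its rescaled level is less sure. All 6 genes of ITAM signalling reached 1 FPKM too, from *Plcg2* at 70.8 FPKM to the adaptor *Lat* at 5.52 FPKM. With longest coding transcripts *Syk* was highest, at 112 FPKM. The cytoskeleton that shapes proplatelets was listed with 10 genes, of which 9 reached 1 FPKM, and the list median was 64.9 FPKM. *Flna*, the actin cross-linker filamin A, was highest at 227 FPKM and *Mylk*, a myosin light chain kinase, lowest at 0.917 FPKM, or 1.32 FPKM by its longest coding transcript. Other blood cells use the genes of these lists as well.

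With all exon bases as the length, the lists of agonist receptors, lipid enzymes and dense granule genes had medians below that of the 10 genes. Receptors for soluble agonists had a median of 2.44 FPKM, with 8 of 9 at 1 FPKM or more, from the ATP-gated channel gene *P2rx1* at 12.7 FPKM down to the adrenergic receptor gene *Adra2a* at 0.0333 FPKM, a value with no whole fragment count behind it. The 4 enzymes of thromboxane and lipid mediators all reached 1 FPKM, with 11.9 FPKM for *Ptgs1* (cyclooxygenase-1), 4.68 FPKM for *Tbxas1* (thromboxane synthase), 3.63 FPKM for *Pla2g4a* and 1.95 FPKM for *Alox12*. With longest coding transcripts *Tbxas1*, at 21.4 FPKM, passed *Ptgs1*, at 16.1 FPKM. The median of these enzymes then went from 4.15 to 12.1 FPKM, above the 8.45 FPKM of the 10 genes by that length. Dense granule genes had 8 of 10 at 1 FPKM or more around a median of 5.15 FPKM, the adaptor gene *Ap3b1* highest at 22.3 FPKM and the transporter gene *Slc35d3* lowest at 0.361 FPKM. Regulators of the lineage stood higher, with a median of 37.1 FPKM over 8 genes, and the transcription factor *Nfe2* was highest at 107 FPKM. Other blood cells use genes of this list as well, and the part of each cell type in their levels was not tested.

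**Figure D4:**
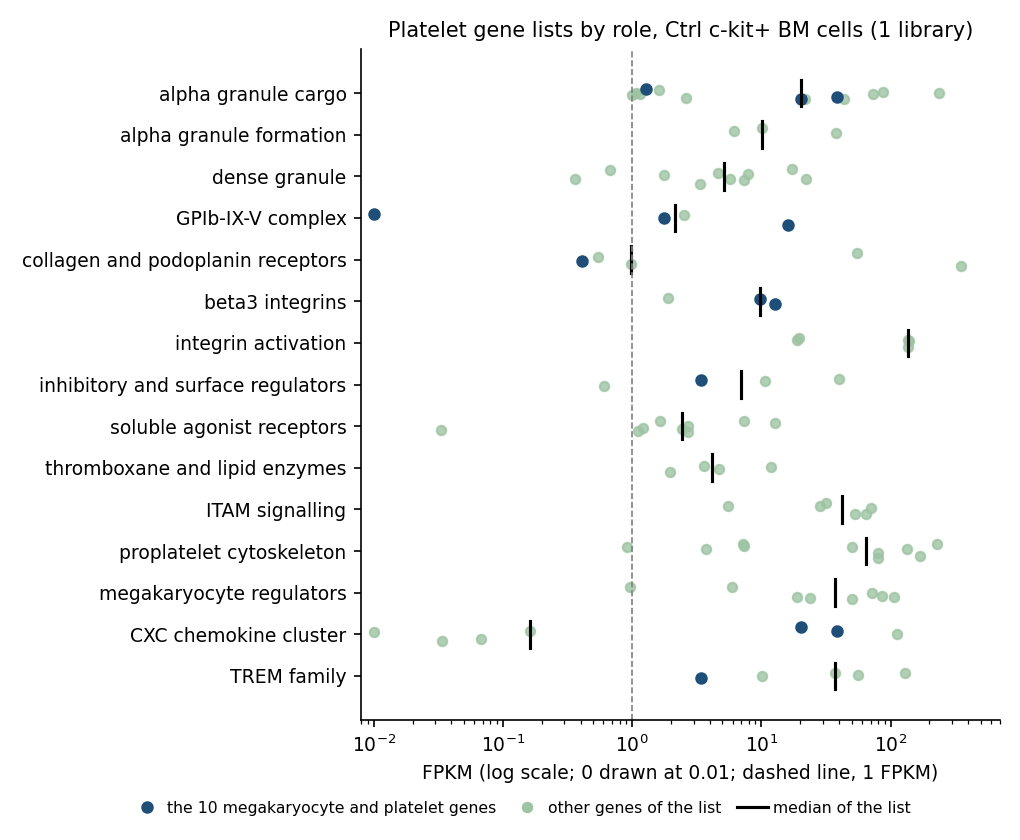
Levels of single genes in FPKM on a log axis, in 15 lists by role. Dark points are the 10 megakaryocyte and platelet genes, light points the other genes, and bars the list medians, with genes listed at 0 drawn at 0.01. The medians are highest for integrin activation (135 FPKM) and lowest for the CXC chemokine cluster (0.163 FPKM).

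Some of the 10 genes are also active in other cells, and markers of those cells were read in the same library. Endothelial cells make von Willebrand factor, and of 7 endothelial markers 2 reached 1 FPKM, from *Cdh5* at 1.22 FPKM (interval, 0.982 to 1.52) down to *Emcn* at 0.0351 FPKM, with a median of 0.729 FPKM. *Cdh5*, the highest of the 7, and *Vwf* were thus at similar levels with all exon bases as the length. With longest coding transcripts they were at 1.28 and 2.32 FPKM, and *Egfl7* was the highest of the 7 markers, at 2.96 FPKM. Whether endothelial RNA takes part in the level of *Vwf* was not tested. Osteoclasts carry beta-3 integrin, and of 6 osteoclast markers 2 reached 1 FPKM and 2 are listed at 0, *Calcr* being one of them, while *Acp5* had 42.4 FPKM. Basophil and mast cell markers had a median of 11.8 FPKM over 6 genes, from *Mcpt8* at 87.0 FPKM to *Tpsb2*, which is listed at 0. Of 6 HSC markers 1 reached 1 FPKM, *Mllt3* at 3.18 FPKM, and *Hoxb5* was lowest at 0.0455 FPKM. The part of these cells in the levels of the 10 genes was not tested.

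The 10 genes had a lower median and sum than the neutrophil, erythroid, GMP, MEP, macrophage, B cell, and basophil and mast cell lists. They were above the T cell list in both. Their summed level was 104 FPKM. The 7 neutrophil markers summed to 494 times that, from *Mmp8* at 480 FPKM to *S100a9* at 26677 FPKM, and the 6 erythroid markers to 407 times, from *Epb42* at 81.3 FPKM to *Hba-a1* at 25466 FPKM. Markers of granulocyte-macrophage progenitors (GMP) had a median of 310.0 FPKM, from *Cebpe* at 131 FPKM to *Elane* at 781 FPKM, and those of megakaryocyte-erythroid progenitors (MEP) of 95.5 FPKM, from *Gfi1b* at 23.9 FPKM to *Car1* at 205 FPKM. Medians were 46.5 FPKM for macrophage markers, from *Mrc1* at 7.37 to *Csf1r* at 51.5 FPKM, and 32.5 FPKM for B cell markers, from *Ebf1* at 4.53 to *Cd79a* at 173 FPKM. T cell markers had a median of 5.02 FPKM and a range from *Cd3e* at 2.62 to *Cd3d* at 8.55 FPKM. Which list lay nearest to the 10 genes depended on *Gp1bb*, whose 0 is not read as an absence. With it the median was 6.56 FPKM and the T cell list was nearest. Without it the median was 9.73 FPKM and the basophil and mast cell list, at 11.8 FPKM, was nearest. Each list holds 5 to 7 genes chosen by hand, and a median depends on that choice.

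**Figure D5:**
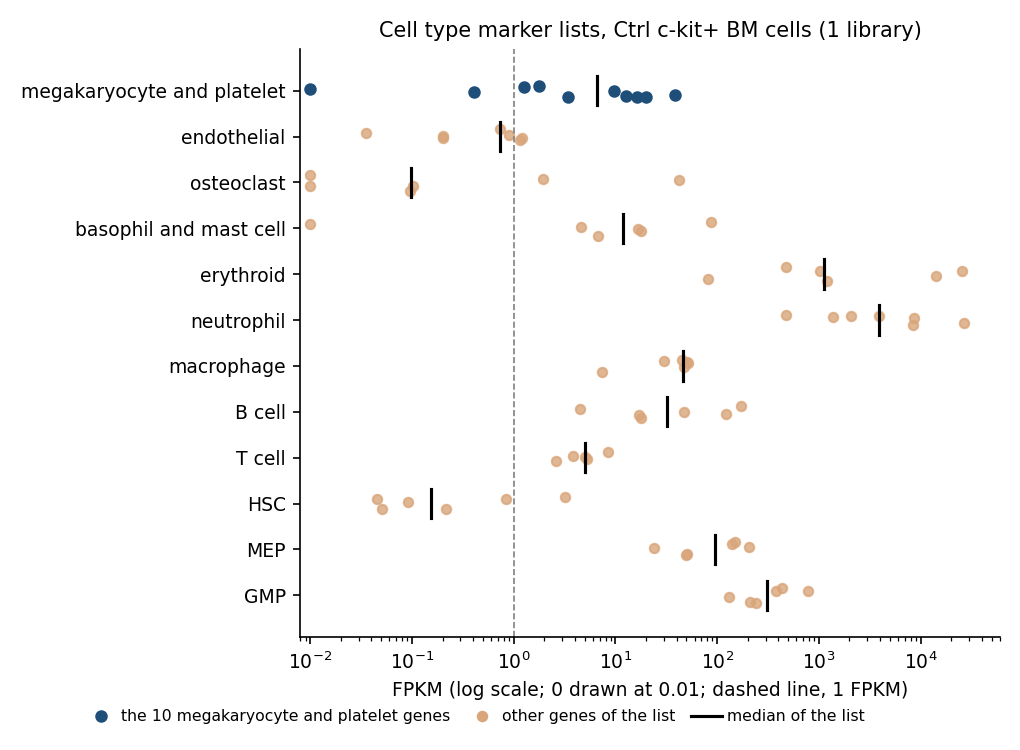
Levels of single genes in FPKM on a log axis for the 10 megakaryocyte and platelet genes and 11 lists of cell type markers, with list medians as bars. The 10 genes have a median of 6.56 FPKM, between those of the T cell list and the basophil and mast cell list. The neutrophil and erythroid lists lie above the rest, at 3872 and 1113 FPKM.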

How the data were processed

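Total RNA of sorted c-kit+ BM cells from Ctrl mice gave the 1 library analysed here, read on a HiSeq machine. The values deposited by the authors are FPKM, 1 per Ensembl gene. The submitters' processing notes name HISAT2 2.0.5, featureCounts 1.5.0-p3 and mm10, without options, annotation or strand setting. Names, exon lengths and coordinates came from GENCODE M21 (GRCm38), which holds 54495 of the 54532 identifiers.

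FPKM times exon length was a whole multiple of 1 step, within 0.01, for 96.4% of the genes above 0 and for all 9 members above 0. These multiples were read as fragments, and the recovery was tested on simulated data. Wilson and exact binomial intervals at 95% cover counting error only. Shared exon bases were counted with bedtools 2.31.1. Start windows came from RefSeq (GRCm38.p6), and motifs were searched on both strands. No test between groups was possible.

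All 10 genes are named, with the highest and lowest gene of every other list, any gene of role lists of up to 5 genes, and the nearest coding genes. The lowest gene of 1 list is not reported here. *Sept5* and *Gm49601* were named after their values were seen, as were *Syk*, *Mmrn1* and *Egfl7*. Members and lists were chosen with earlier results of these data known. Alternatives were other detection minimums, totals and gene lengths. Intervals were computed in scipy 1.17.1 and tables in pandas 2.3.3, under Python 3.11.15.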

Additional observations from a re-analysis of the deposited data

How the results depend on the processing

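No paired analysis was possible because there is a single library, with no replicate number. Of 22 alternatives, 10 stayed within the counting interval or within 1.5 times a count, 11 moved and 1 turned the direction. The ratio of *Itga2b* to *Itgb3*, 0.761 with all exon bases, was 1.18 with longest coding transcripts, by construction of the length. The ratio of *Pf4* to *Ppbp*, 0.522, was 0.640 with that length and 0.347 in undivided fragments, and that of *Gp9* to *Gp1ba*, 9.13, was 2.96 in undivided fragments. Of the 10 genes, 4 reached 10 FPKM. The median of 6.56 FPKM was 8.45 with longest coding transcripts, 15.3 as TPM, a factor common to all genes, and 9.73 without *Gp1bb*. The median of the 83 companion genes went from 10.1 to 15.8 FPKM with longest coding transcripts. The share of summed FPKM, 0.0244%, was 0.0329% without the 10 most abundant genes, 0.0254% without mitochondrial genes and 0.0214% in fragments. The alternatives for the companion genes, without *Gp1bb* and with unshared exon bases were chosen after seeing the data. The planned ratio of *Gp1bb* to *Gp1ba* was not run, since *Gp1bb* is listed at 0. Depth limits *Gp6*, with 38 fragments, and the spread between mice is unknown for every gene.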

Other observations

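*Ppbp* and *Pf4* stand in a cluster of CXC chemokine genes on chromosome 5, whose members recruit leukocytes, and 7 genes of it were read. Between *Cxcl5*, at 0.0340 FPKM from 1 fragment and 6894 bases before *Ppbp*, and *Cxcl3*, at 0.163 FPKM from 9 fragments and 12720 bases after *Pf4*, the platelet pair stood at 38.7 and 20.2 FPKM. *Cxcl15* is listed at 0. The highest gene of the cluster was *Cxcl2*, an inducible chemokine of myeloid cells, at 112 FPKM (95% Wilson interval, 108 to 115), which was 2.88 times *Ppbp* (interval, 2.65 to 3.14). *Treml1*, at 3.39 FPKM, was the lowest of the 5 genes of the TREM family on chromosome 17 that were listed. *Trem2*, its neighbour, was not in that list and was lower, at 1.64 FPKM, while *Trem3* had 129 FPKM, *Trem1* 56.0 FPKM, *Treml2* 37.4 FPKM and *Treml4* 10.1 FPKM. These family members are known from neutrophils, monocytes and macrophages.

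The nearest protein-coding genes of the other members were read in the same library. *Gp9* lies between *Efcc1* at 0.141 FPKM and *Rab43* at 5.96 FPKM, and *Gp1ba* between *Chrne* at 0.0750 FPKM and *Slc25a11* at 43.4 FPKM. *Itgb3* lies between *Myl4* at 4.28 FPKM and *Gm11639* at 0.00354 FPKM, and *Itga2b* between *Fam171a2* at 0.284 FPKM and *Gpatch8* at 8.10 FPKM. *Vwf* lies between *Cd9*, a tetraspanin of platelets and other cells, at 80.8 FPKM, and *Ano2*, which is listed at 0. *Gp6* lies between *Ncr1* at 2.55 FPKM and *Rdh13* at 1.32 FPKM, and *Treml1* between *Trem2* and *Nfya*, the latter at 19.9 FPKM. Beside *Gp1bb* and the genes that overlap it, *Tbx1* is listed at 0 and *Cldn5* had 0.313 FPKM.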
